A study of Mus musculus with 8 samples.

Results

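The miR-200 family is a set of 5 microRNAs (miRNAs, short RNAs that repress messenger RNAs): miR-200a, miR-200b and miR-429 from one genomic cluster, and miR-200c and miR-141 from another. The members were taken by exact array name, and all 5 were among the 611 mouse miRNAs on the array. Lungs came from female C57BL/6 mice (Bom Tac dams) that were pregnant during dosing. The Printex 90 group (4 samples) received carbon black nanoparticles in nanopure water by intratracheal instillation, with 4 doses of 0.067 mg, the first on gestational day 7 and the others on days 10, 15 and 18, a cumulative 0.268 mg. The vehicle control group (4 samples) received nanopure water by the same route, and lungs of both groups were taken at weaning, 26 to 27 days after exposure. The age of the dams is not given in the labels, and no label states whether the arrays came from different mice, so p-values reflect only how much these samples vary, which may be technical.

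miRNAs of this family are abundant in epithelial cells, where they repress the transcription factors Zeb1 and Zeb2. Those factors repress E-cadherin and also repress both miR-200 clusters, so that each side holds the other down. Loss of the family is a known feature of epithelial to mesenchymal transition, the change in which epithelial cells lose their junctions and gain migratory traits. In the lung the family is known from airway and alveolar epithelium.

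The mature sequences are shown because a miRNA chooses its targets mainly through its seed, bases 2 to 8 from the 5′ end, and because members differ from each other by few bases. RefSeq (build GRCm38.p6) held a 3p arm for all 5 array names, with the seed in capitals:
miR-200b: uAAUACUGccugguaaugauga
miR-429: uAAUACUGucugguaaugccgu
miR-200c: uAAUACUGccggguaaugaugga
miR-200a: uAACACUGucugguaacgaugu
miR-141: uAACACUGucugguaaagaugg

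The first 3 sequences share one seed and the last 2 share another, so each seed occurs in both clusters. No other of the 1738 mature mouse miRNAs in that table carried either seed. Counted from 1 at the 5′ end, miR-200b and miR-200c differ by U11G and A22G and by 1 extra 3′ base of miR-200c, and miR-200a and miR-141 differ by C17A and U22G. The pairs furthest apart differ by 5 substitutions over 22 positions. With sequences this close, an array probe may bind more than 1 member, and the array files give no probe sequences with which to test it.

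On chromosome 4 the 3 hairpins of the first cluster lie within 1846 bases of the minus strand (chr4:156053905-156055750), a span that overlaps the long non-coding RNA gene Gm13648 and neighbours Ttll10. On chromosome 6 the 2 hairpins of the second lie within 477 bases of the minus strand (chr6:124717914-124718390), between Phb2 and Ptpn6, with no other RefSeq gene over them. The Mir200b hairpin is shown to place both arms, with the measured 3p arm in capitals and the 5p arm, whose array name is miR-200b*, nearer the 5′ end (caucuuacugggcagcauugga):
Mir200b hairpin: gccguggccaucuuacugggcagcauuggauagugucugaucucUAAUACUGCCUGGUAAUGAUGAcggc

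Each array carried 13000 spots and detected 248 to 283 mouse miRNAs. All 8 arrays shared 1 slide and 1 scan. All Printex 90 samples occupied slide row 2 and all controls row 1, so that slide row and treatment cannot be told apart. Values below are intensities relative to the 75th percentile of their own array, a level that lay between 580.8 (Printex 90 replicate 3) and 804.7 intensity units (vehicle control replicate 4). Marker miRNAs of lung cell types were present: 7 of 9 other epithelial, 5 of 7 multiciliated and both endothelial miRNAs were detected on all 8 arrays.

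All 5 members were detected on all 8 arrays, and all 777 of their 777 kept spots were well above background. Each member had 2 probes of 10 spots. Over 80 probe measurements the spots of a probe varied by a median of 4.34% (coefficient of variation, 1.69% to 8.80%). The number of arrays, not the number of spots, limits the precision of the group comparison.

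The comparison asks whether the lung level of the family differed about 4 weeks after repeated particle instillation. All 5 members measured slightly higher after Printex 90, by 1.03-fold to 1.07-fold, and none passed the test. The groups overlapped for every member. A single Printex 90 array and a single control array held the highest and the lowest value of all 5 members. In lung tissue, a change in the number of epithelial cells and a change of a miRNA per cell cannot be told apart.

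In the chromosome 4 cluster, miR-200a (mmu-miR-200a on the array) measured 2.19, 2.16, 2.45 and 2.08 on Printex 90 replicates 1 to 4, against 2.20, 2.23, 2.19 and 2.02 on vehicle control replicates 1 to 4. Its 3 other Printex 90 arrays lay within the range of the controls. miR-200b (mmu-miR-200b), a repressor of Zeb1 and Zeb2, measured 1.97, 1.89, 2.29 and 1.83 on Printex 90 replicates 1 to 4, against 2.01, 1.87, 1.97 and 1.80 on vehicle control replicates 1 to 4. miR-429 (mmu-miR-429), which has the same seed as miR-200b, measured 1.08, 1.02, 1.18 and 0.999 on Printex 90 replicates 1 to 4, against 1.08, 1.03, 1.04 and 0.964 on vehicle control replicates 1 to 4. For miR-200b only replicate 3 of the Printex 90 group exceeded every control, and for miR-429 replicates 3 and, narrowly, 1 did.

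In the chromosome 6 cluster, miR-200c (mmu-miR-200c), the other carrier of the miR-200b seed, measured 1.35, 1.31, 1.50 and 1.25 on Printex 90 replicates 1 to 4, against 1.34, 1.26, 1.29 and 1.19 on vehicle control replicates 1 to 4. miR-141 (mmu-miR-141), the partner of miR-200a by seed, measured 1.58, 1.49, 1.72 and 1.48 on Printex 90 replicates 1 to 4, against 1.55, 1.48, 1.49 and 1.35 on vehicle control replicates 1 to 4. Printex 90 replicates 1 and 3 exceeded all 4 controls for both miRNAs, and the remaining 2 lay among the controls.

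**Figure D1:**
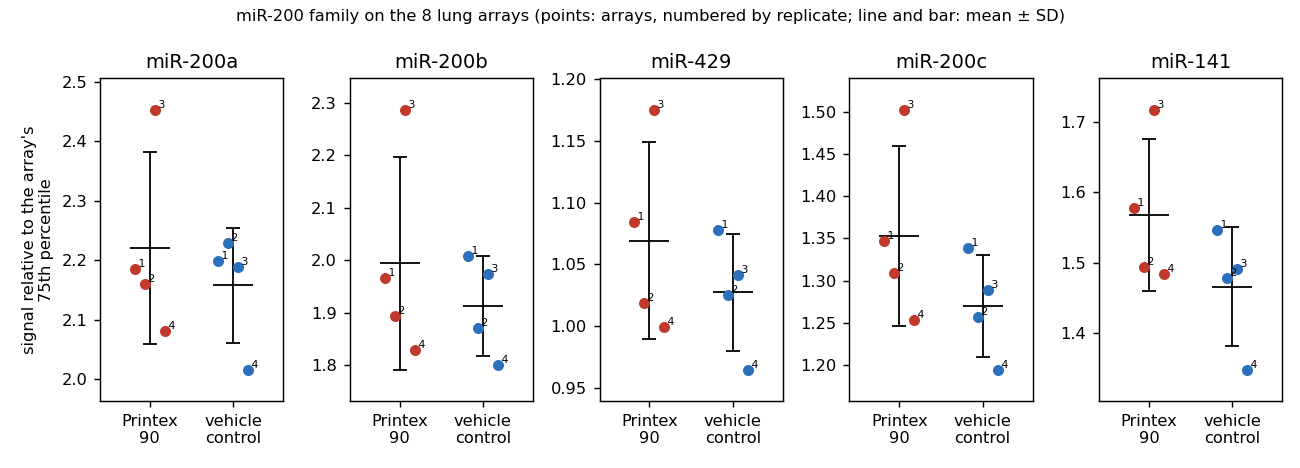
Signal of each member relative to its array's 75th percentile (vertical axes, one scale per panel, not starting at 0) for the 4 Printex 90 and the 4 vehicle control arrays, with replicate numbers beside the points and mean ± SD as line and bar. Printex 90 replicate 3 is the highest and vehicle control replicate 4 the lowest point in all 5 panels.

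As group means, miR-200a measured 2.22 ± 0.162 after Printex 90 and 2.16 ± 0.0966 in controls (SD, n = 4 each, here and below). For miR-200b the means were 1.99 ± 0.203 after Printex 90 and 1.91 ± 0.0951 in controls, and for miR-429 they were 1.07 ± 0.0797 after Printex 90 and 1.03 ± 0.0475 in controls. miR-200c measured 1.35 ± 0.107 after Printex 90 and 1.27 ± 0.0604 in controls, and miR-141 measured 1.57 ± 0.108 after Printex 90 and 1.47 ± 0.0844 in controls. In these relative signals the Printex 90 group had the larger SD for all 5 members. Before scaling the vehicle control group had the larger SD for all 5. For miR-200a the unscaled SD was 76.6 intensity units after Printex 90 and 111 in controls, and for miR-200b it was 57.1 and 123.

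The comparison was fitted with limma over all 268 mouse miRNAs detected on at least 4 arrays, with p-values adjusted over all 268 by the Benjamini-Hochberg method. The log2 difference (Printex 90 minus vehicle control) was 0.039 for miR-200a (SE 0.059, limma adjusted p = 0.797), a 1.03-fold difference with a 95% interval of 0.933 to 1.13. miR-200b differed by 0.056 (SE 0.076, limma adjusted p = 0.775), 1.04-fold with an interval of 0.918 to 1.18. miR-429 differed by 0.056 (SE 0.061, limma adjusted p = 0.767), 1.04-fold (0.942 to 1.15). The 2 members of the other cluster had the larger differences, 0.089 for miR-200c (SE 0.063, limma adjusted p = 0.724), 1.06-fold (0.960 to 1.18), and 0.097 for miR-141 (SE 0.062, limma adjusted p = 0.706), 1.07-fold (0.966 to 1.18). The intervals leave room for a difference of up to 1.18-fold upward and down to 0.918-fold.

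None of the 5 members was called, and 0% of all tested miRNAs were: with limma 0 of 268 reached 0.05 after adjustment, and before adjustment 15 (5.6%) were below 0.05, none of them a member. All 5 members were on the higher side, where 31.7% of tested miRNAs were (85 higher and 176 lower). The median log2 difference was 0.056 over the members and -0.046 over all tested miRNAs. Groups that did not overlap made up 1.49% of tested miRNAs and none of the members. The exact permutation p over all 70 assignments of arrays (2-sided) ran from 0.171 for miR-141 to 0.629 for miR-200a, unadjusted.

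The sign of the small difference depended on the scaling for miR-200a, miR-200b and miR-429, and on 1 array for miR-200a and miR-200b. For miR-200c and miR-141 the size changed but not the sign. Without scaling between arrays, 2 members were higher and 3 lower after Printex 90, with log2 differences of -0.031 for miR-200a, -0.015 for miR-200b, -0.014 for miR-429, 0.019 for miR-200c and 0.026 for miR-141. Scaling by quantile normalization left all 5 higher, between 0.039 for miR-141 and 0.13 for miR-200c. Without Printex 90 replicate 3 the differences were -0.0096 for miR-200a, -0.012 for miR-200b, 0.0097 for miR-429, 0.038 for miR-200c and 0.052 for miR-141. Without vehicle control replicate 4 they were 0.0067 for miR-200a, 0.027 for miR-200b, 0.026 for miR-429, 0.060 for miR-200c and 0.057 for miR-141.

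**Figure D2:**
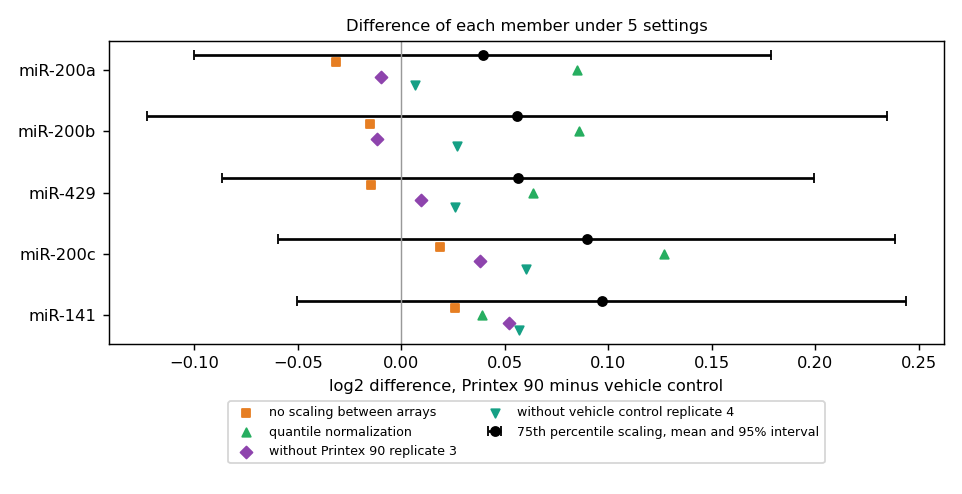
Log2 difference (horizontal axis, Printex 90 minus vehicle control) of each member, with the black points and bars giving the 75th percentile scaling and its 95% interval and the coloured points giving 4 other settings. All 5 intervals include 0, and 3 members change sign without scaling between arrays.

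The members moved together from array to array. Over the 8 arrays the relative signal of each member spanned 1.22-fold to 1.28-fold, against a median of 1.31-fold for the 243 tested miRNAs above the floor on every array. The within-group SD was 0.086 to 0.11 log2 units, where the median of those 243 miRNAs was 0.13. Pearson's r between members ran from 0.904 (miR-200a and miR-141) to 0.974 (miR-429 and miR-200c) over the 8 arrays, where the median over all 28680 pairs of miRNAs detected on every array was 0.129. These points share the arrays and the divisor of each array, and the range moved when either was changed. Without the 2 arrays farthest from the median, Printex 90 replicate 3 and vehicle control replicate 4, r ran from 0.24 to 0.906. With quantile normalization it ran from 0.431 to 0.931, against 0.0217 for the median pair.

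The array with the highest relative signals had the lowest divisor, and the array with the lowest had the highest divisor. Before scaling, vehicle control replicate 4 was the brightest array for all 5 members, at 1622 intensity units for miR-200a, 1449 for miR-200b, 776 for miR-429, 961 for miR-200c and 1084 for miR-141. Printex 90 replicate 3 ranked 4 or 5 of the 8 arrays for these members, at 1425, 1328, 683, 873 and 998 intensity units in the same order of miRNAs. The mean log2 relative signal of the family correlated with the log2 of the divisor at r = -0.813 over the 8 arrays, and at r = -0.298 without those 2 arrays. Because the relative signal is divided by that same divisor, r is drawn toward negative values by construction. The part of the divisor in the group difference was not tested beyond the scalings named above. Without scaling the r between members was 0.875 to 0.979, and that of the median pair 0.518.

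**Figure D3:**
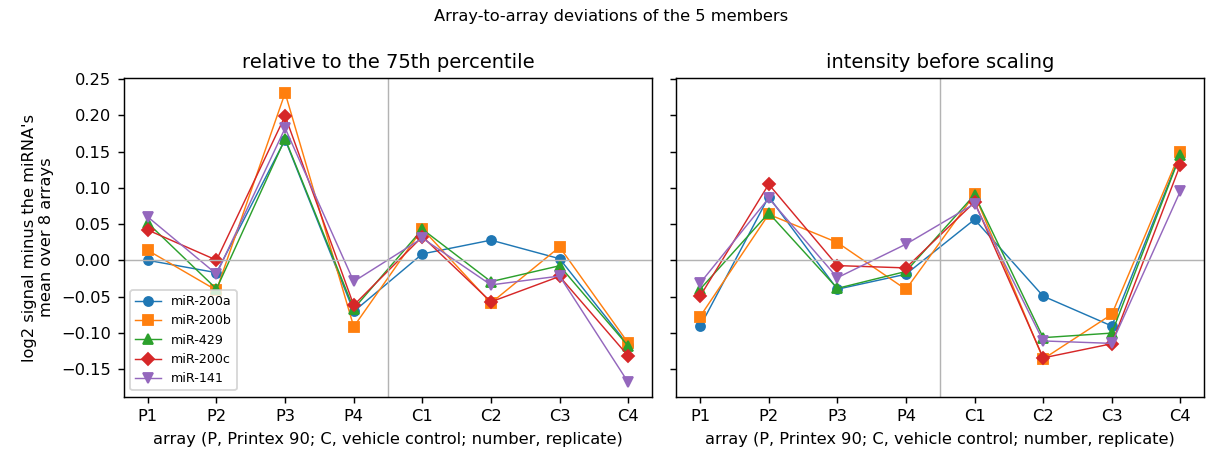
Log2 signal of each member minus its own mean over the 8 arrays, for relative signals (left) and for intensities before scaling (right), with Printex 90 arrays (P) left of vehicle control arrays (C). The 5 lines run close together in both panels. On the left P3 is the highest and C4 the lowest array, while on the right C4 is the highest and P3 lies between other arrays.

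The probes of a member gave similar results. Of 10 probes 9 were higher after Printex 90, with log2 differences up to 0.098, and the dimmer probe of miR-200b was at -0.0037. All 10 probes had their highest relative signal on Printex 90 replicate 3, and 9 had their lowest on vehicle control replicate 4. The probes of miR-200b were the only pair to differ in sign, the brighter one being at 0.080.

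Ratios between members on the same array do not depend on a single divisor per array. The 10 ratios between members varied over the 8 arrays with an SD of 0.024 to 0.045 log2 units, below the 0.082 to 0.11 of the members themselves. Within a cluster, the 4 ratios differed between groups by 0.00051 to 0.017 log2 units. Between clusters, all 6 ratios of a chromosome 6 member over a chromosome 4 member were higher after Printex 90, by 0.033 to 0.058 log2 units. With quantile normalization, which does not use a single divisor, the 3 such ratios of miR-200c were higher and the 3 of miR-141 lower, by at most 0.063 log2 units in size. There the ratio of miR-141 over miR-200c, within a cluster, differed by more (-0.088). In the authors' deposited table the ratio of miR-429 over miR-200b, also within a cluster, differed by 0.072. The miR-200b value in that table is a median that falls between its probes or at the top of the dimmer one, as described below. Neighbouring ratios share members, so they are not separate observations.

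The groups did not overlap in 2 of the 10 ratios, where 3.98% of all 28680 ratios of miRNAs detected on every array did not. The log2 ratio of miR-141 over miR-429 was 0.54 to 0.57 after Printex 90, against 0.48 to 0.53 in controls. The log2 ratio of miR-200c over miR-429 was 0.31 to 0.36 after Printex 90, against 0.29 to 0.31 in controls, with only 0.00058 between the groups. For both ratios the groups overlapped with quantile normalization, with the median over spots and in the authors' deposited table. Only the change of such a ratio between arrays is read here, since signals of different probes cannot be compared as amounts.

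Taking the mean log2 signal of each cluster, chromosome 6 minus chromosome 4, gave -0.197, -0.202, -0.223 and -0.195 on Printex 90 replicates 1 to 4, against -0.226, -0.251, -0.252 and -0.259 on vehicle control replicates 1 to 4. All 4 Printex 90 arrays lay above all 4 controls, by 0.0024 log2 units at the closest, and the group means differed by 0.043. This combination was formed after the values were seen and has no test. The difference was 0.039 to 0.050 when any 1 array was left out. The groups also stayed apart with the mean of probes' log2 values (0.048), the scanner software's total gene signal (0.043) and the median over spots (0.045). They overlapped with quantile normalization (0.0049) and in the authors' deposited table (0.073).

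**Figure D4:**
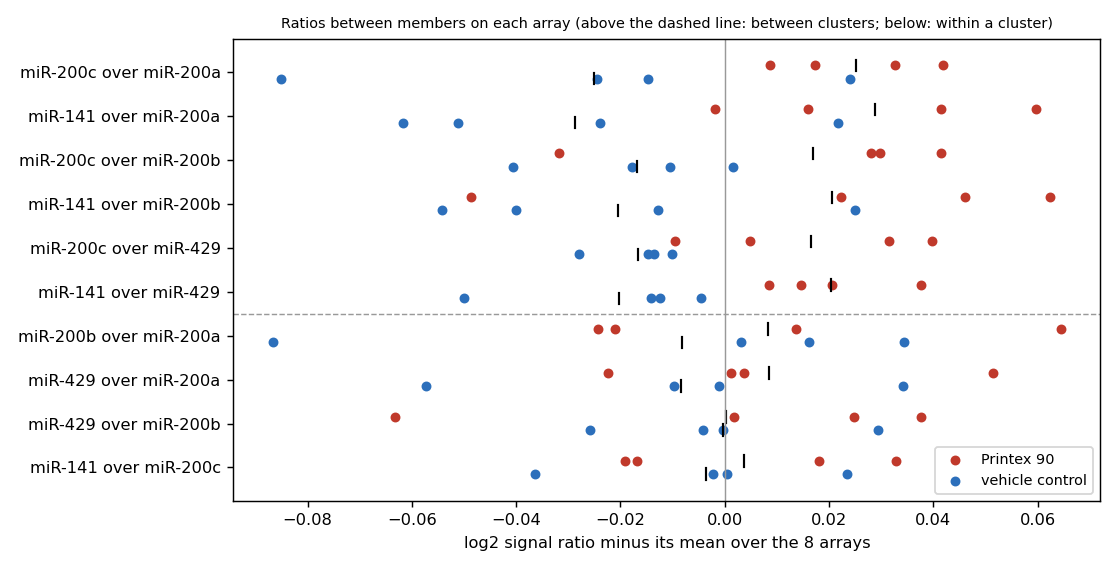
Log2 ratio of each pair of members on each array, minus the mean of that ratio over the 8 arrays (horizontal axis), with Printex 90 arrays above vehicle control arrays in each row and short black lines at the group means. The 6 ratios between clusters (upper rows) are displaced to the right after Printex 90, and the 4 ratios within a cluster (lower rows) have group means close to each other at the scaling shown.

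The passenger strands, the arms that are mostly discarded when a hairpin is processed, were near or below the limit of detection. For miR-200c* 0 of 159 kept spots were well above background. Of 4 on the array, miR-200a* and miR-200c* were detected on no array, and miR-200b* was detected on 0 Printex 90 and 1 vehicle control arrays. miR-141* was detected on 1 Printex 90 and 2 vehicle control arrays, with relative signals of 0.0319 to 0.0472 after Printex 90 and 0.0320 to 0.0432 in controls. None met the filter for the test, and no difference between groups could be measured at these signals.

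Other epithelial miRNAs, listed for comparison, gave no call. Of 8 tested members 3 were higher and 4 lower, and 1 (miR-182, named after its values were seen) was at the floor on all arrays. miR-31 had the largest positive difference (0.20, SE 0.067, limma adjusted p = 0.706), and miR-194 the largest negative one (-0.10, SE 0.060, limma adjusted p = 0.706). The summed relative signal of the list was 1.02 to 1.11 after Printex 90 and 0.954 to 1.11 in controls. Like the family, it was lowest on vehicle control replicate 4. Unlike the family, it was highest on vehicle control replicate 3, narrowly above Printex 90 replicate 3.

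miRNAs of multiciliated airway cells (5 tested) gave 4 higher, 1 lower and 0 called, and their median difference was 0.14 log2 units. Their summed signal was 5.06 to 7.85 after Printex 90 and 4.28 to 6.59 in controls. Its highest array was Printex 90 replicate 3 and its lowest vehicle control replicate 4, the same arrays as for the miR-200 family. Most of this sum came from miR-34b-5p (mean 3.75 after Printex 90) and miR-34c (1.84). Over the 5 tested miRNAs, Pearson's r with the family mean ran from 0.431 to 0.947, so the list did not follow the family evenly. The part of multiciliated cells in the family's values was not tested. The endothelial list (2 tested, summed signal 34.4 to 42.3 after Printex 90 and 37.3 to 43.0 in controls) had its lowest array in Printex 90 replicate 1 and its highest in vehicle control replicate 3. Leukocyte miRNAs (5 tested) summed to 7.43 to 8.85 after Printex 90 and 7.07 to 9.04 in controls.

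Among 256 tested miRNAs outside the family with varying values, those with the highest Pearson r to the mean of the family over the 8 arrays were miR-34c (r = 0.947), miR-34b-5p (0.901), miR-872 (0.890), miR-107 (0.877) and miR-103 (0.838). Spearman's rho was 0.905, 0.881, 0.905, 0.738 and 0.905 in the same order. miR-34c and miR-34b-5p belong to a family that is abundant in multiciliated cells, and miR-103 and miR-107 form a family of their own. miR-34c measured 1.84 ± 0.399 after Printex 90 and 1.66 ± 0.266 in controls. These values share arrays and divisors with the family. Without scaling r was -0.220 for miR-34c and -0.461 for miR-34b-5p, and 0.838 to 0.927 for the other 3. With quantile normalization r was 0.783 for miR-34c, 0.733 for miR-34b-5p, 0.045 for miR-872, 0.426 for miR-107 and 0.695 for miR-103. Without the 2 arrays at the extremes r was 0.748, 0.605, 0.735, 0.242 and 0.785 in the same order of miRNAs.

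The list of miRNAs that also act on Zeb or Snail factors, or that Zeb1 represses, had 9 tested members. Of these 4 were higher, 4 lower, 1 (miR-182) at the floor on all arrays and 0 called. Most of them also belong to the other epithelial or multiciliated lists, so this list is not a separate observation. miR-34b-5p, which targets Snail, had the largest positive difference (0.15, SE 0.19), and miR-101a the largest negative one (-0.12, SE 0.050, limma adjusted p = 0.706). Of 9 tested miRNAs reported to rise in epithelial to mesenchymal transition or under TGF-beta, 3 were higher, 6 lower and 0 called, with a median of -0.078. The summed signal of this list was 36.0 to 40.3 after Printex 90 and 32.9 to 34.1 in controls. Of that, miR-21 made up 18.0 ± 1.79 after Printex 90 and 12.8 ± 0.932 in controls (mean ± SD). The largest differences in this list were those of miR-155 (0.50, SE 0.19, limma adjusted p = 0.706) and miR-21 (0.49, SE 0.086, limma adjusted p = 0.203). The adjusted p of miR-21 was the lowest of all 268 tested miRNAs.

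In the authors' deposited table miR-200b stood apart from its family. The authors' deposited table gave it log2 values of 9.21, 9.20, 8.81 and 9.26 on Printex 90 replicates 1 to 4, against 9.25, 9.25, 8.76 and 9.19 on vehicle control replicates 1 to 4. Replicate 3 of both groups was thus lower by about as much, although the summed probe signals placed Printex 90 replicate 3 highest. The table was matched to within 0.0252 log2 units by taking the median of a miRNA's spots after quantile normalization of the log2 median spot signal, with outlier-flagged spots kept. Both probes of miR-200b have 10 spots each, and the brighter probe read about 1 log2 unit above the dimmer one, so this median falls between the probes.

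On Printex 90 replicate 3 and vehicle control replicate 3 one and the same spot of the brighter probe, in grid row 164 and column 76, was dark, at 5.24 log2 units on the Printex 90 array and 5.38 on the control array. The scanner software had flagged it as an outlier on both arrays. With that spot at the bottom of the order, the median moved to the top of the dimmer probe, whose median log2 signal before normalization was 8.69 on the Printex 90 array and 8.65 on the control array. Leaving out flagged spots changes how many spots each probe contributes, and the rebuilt value then moved on some array by up to 0.55 log2 units for miR-200b, 0.44 for miR-200a and 0.72 for miR-141. Setting aside the lowest bright spot, the dim and bright probes were fully separated on all 8 arrays for miR-200a, miR-200b, miR-200c and miR-141, and on 3 of 8 for miR-429. In the same deposited table, the 4 Printex 90 values of miR-200c (8.84 to 8.94) lay above the 4 control values (8.70 to 8.82), with a limma adjusted p of 0.396 on the authors' deposited table. It was the only member without overlap there, and 12 of the 268 tested miRNAs (4.48%) had none in that table.

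**Figure D5:**
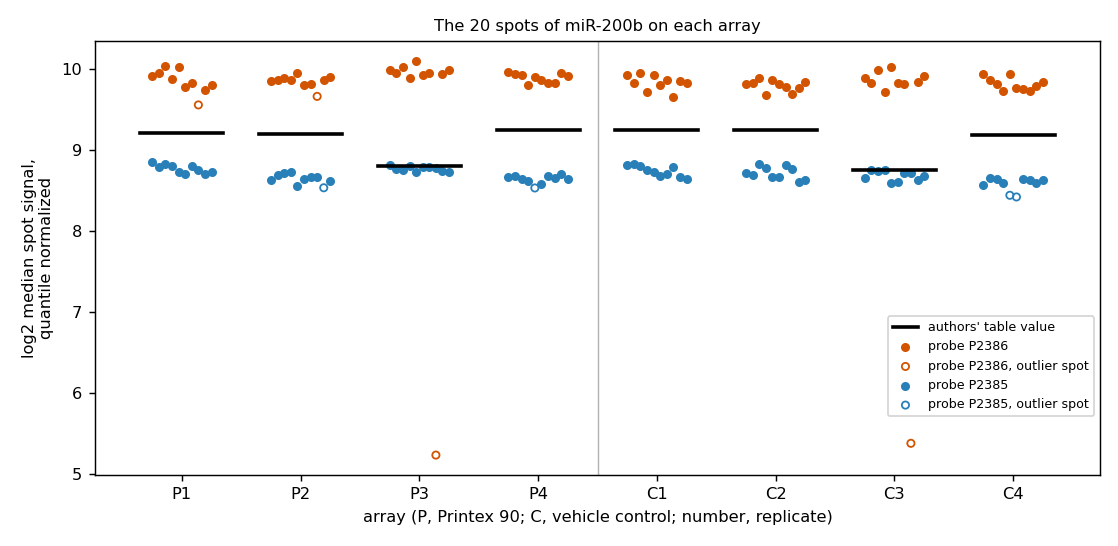
Log2 median signal of the 20 miR-200b spots on each array after quantile normalization (vertical axis), by probe, with open symbols for outlier-flagged spots and black lines for the value in the authors' deposited table. The line lies between the probes on 6 arrays and at the top of the dimmer probe on P3 and C3, where 1 spot of the brighter probe is dark.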

How the data were processed

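Per the labels, total RNA enriched for small RNA (miRvana kit) was labelled with Cy3 and hybridised to 1-colour Agilent miRNA arrays. The deposited intensity of each spot was extracted, per the file headers, by Agilent Feature Extraction 10.7.3.1 (grid 021828), background-subtracted and not normalized between arrays. The authors' deposited table is on a log2 scale, and its steps were not given in the sources used here (column medians 5.41 to 5.43). It served as an alternative.

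Control spots and outlier-flagged spots (2.25% to 2.76% per array, 23 of 800 for the family) were left out, and 0 spots were saturated. Signals were averaged within a probe and summed over a miRNA's probes, and arrays divided by their 75th percentile taken over those 240 mouse miRNAs that every array detected. Detection required 50% of a probe's kept spots well above background. Values under 0.0388 were set to this floor, which no member reached. limma 3.58.1 (lmFit, eBayes with 1.02 prior degrees of freedom, R 4.3.3) was 2-sided with a threshold of 0.05, and was tested on simulated data. The array's members were matched to RefSeq's 3p arms by name. The files have no mean spot signal, so normexp used the median signal. Named miRNAs were the 5 members, their passenger strands, the 5 miRNAs most like the family mean, and some from the marker lists. From a list, either the largest positive and the largest negative difference were named, or the 2 largest in size. miR-182 was named in addition because it was at the floor. The members, lists and tests were chosen with earlier results of these data known. Alternatives covered scaling, background, filter, probe and spot summary, floor, spread model, array weights, replicate block and each array left out.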

Additional observations from a re-analysis of the deposited data

How the results depend on the processing

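No member passed an adjusted p of 0.05 with limma under any of the 25 limma alternatives, the lowest adjusted p being 0.394 (miR-200c, quantile normalization). miR-200c and miR-141 stayed higher after Printex 90 in all of them, with log2 differences of 0.0089 to 0.14 and 0.012 to 0.15. Without scaling between arrays the signs of miR-200a (-0.031), miR-200b (-0.015) and miR-429 (-0.014) reversed. Array weights reversed miR-200a (-0.0029). Leaving out 1 array gave -0.0096 to 0.069 for miR-200a, -0.012 to 0.096 for miR-200b and 0.0097 to 0.088 for miR-429, with the negative values coming without Printex 90 replicate 3. For miR-200c that range was 0.038 to 0.13 and for miR-141 it was 0.052 to 0.12. Alternatives chosen after seeing the data left out both Printex 90 replicate 3 and vehicle control replicate 4, which gave -0.042 for miR-200a, -0.041 for miR-200b and -0.020 for miR-429, or rebuilt the authors' deposited table without outlier spots, which gave -0.061 for miR-200b. The number of miRNAs called was 0 in the comparison as reported, and 3 with normexp, without Printex 90 replicate 3 and without both of those arrays. Leaving out 1 array gave 0 to 3, none of them a member. The median of all miRNAs moved from -0.046 to -0.12 without scaling, and the cause of these shifts was not tested.

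The groups share replicate numbers 1 to 4, which are also slide columns. Deviations of same-numbered arrays correlated at -0.470 to 0.440 over the 268 miRNAs, and 1 of 4 pairs exceeded 0.1. So few pairs cannot decide whether the numbers pair the samples, and the labels state no pairing. With the replicate block 0 miRNAs were called, and the members had the same differences (0.039 for miR-200a, 0.056 for miR-200b, 0.056 for miR-429, 0.089 for miR-200c, 0.097 for miR-141), with limma adjusted p = 0.744 to 0.777. The SEs of the members were 0.044 to 0.052 with the block, against 0.059 to 0.076 without it.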

Other observations

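In each group of 4 arrays the gap between the extreme array and its nearest neighbour, divided by the range of the group, was compared with Dixon's 95% limit for the 5 members, the 10 ratios and the cluster ratio. None of these 32 groups exceeded it, where chance gives about 1.6.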
